A study of Mus musculus with 3 samples.

Results

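The genes described here are those of the proteasome and its inducible form, the immunoproteasome. They were taken as every protein-coding gene of the deposited table whose symbol begins with Psm, then a letter from a to g, then a number, which gave 50 of 54532 genes. Of the 50, 31 encode constitutive subunits of the core and of the regulatory particle, and 5 (Psmb8, Psmb9, Psmb10, Psme1 and Psme2) encode interferon-inducible subunits. The other 14 comprise 7 assembly chaperones, 4 other activators or inhibitors (Psme2b, Psme3, Psme4 and Psmf1), 2 tissue-restricted subunits (Psma8 of germ cells and Psmb11 of the thymus) and Psmc3ip, which shares the name pattern but encodes a cofactor of meiotic recombination.

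The proteasome degrades proteins that carry ubiquitin chains. Its core is a barrel of alpha and beta rings with the proteolytic sites on 3 beta subunits, and the regulatory particle at its ends recognises, unfolds and feeds in the substrate with a ring of ATPases. Interferon induces alternative catalytic subunits, beta1i (Psmb9), beta2i (Psmb10) and beta5i (Psmb8), which replace beta1 (Psmb6), beta2 (Psmb7) and beta5 (Psmb5) in newly built cores, together with the activator PA28 (Psme1 and Psme2), and the peptides so made supply MHC class I molecules. In the brain, neurons mostly build the constitutive form, immune cells and microglia are known for the inducible form, and tau is among the proteins that proteasomes degrade.

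Hippocampal RNA of 10-month-old mice on the C57BL/6 background was sequenced in 3 genotypes: wild type (WT), PS19, and PS19 in which 1 allele of Zbp1 was lost (PS19 Zbp1+-). The PS19 line expresses mutant human tau from a transgene under the mouse Prnp promoter, which is active mainly in neurons, and both PS19 genotypes carry it; the human transcript was not analysed here. Zbp1 encodes a sensor of left-handed nucleic acids. Each genotype was 1 library, and the labels state neither the sex of the animals nor whether tissue was pooled, so that no difference below has a replicate check, no p-value was computed, and genotype and library cannot be told apart.

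Levels are given as FPKM, a count per kilobase of gene scaled to library size, and as the whole reads recovered from them. Differences between 2 libraries are on the log2(FPKM + 1) scale, for protein-coding genes that reached an FPKM of 1 in at least 1 of them, and a gene counts as past the threshold at 1 log2 unit or more, which is 2-fold on that scale and understates the change of genes with low levels. A read ratio is taken per library size, as implied by the FPKM scaling and not by the sum of reads. Its 95% interval holds counting error alone, with no spread between animals or libraries. The interval treats each read as a separate molecule, which reads without molecular identifiers need not be, so that it may be too narrow even for counting error.

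The recovered reads summed to between 16400328 and 17109734 per library. The WT library had 5 reads of Zbp1 and the PS19 library 91, while PS19 Zbp1+- had 0, where a count of 0 allows up to 3 reads, and with 5 reads from the 2 alleles of WT the loss of 1 allele could not be checked. The PS19 Zbp1+- library stood apart from the other libraries. Of the genes with 8 to 12 reads in both other libraries, 16.0% had no read in it (exact interval 12.3 to 20.2), against 2.14% in WT and 0.410% in PS19 on the same measure. It had 0 reads of Xist and 711 of Ddx3y, the reverse of WT and PS19, whose Xist reads were 11062 and 13350 with none of Ddx3y. These are the reads of male tissue in PS19 Zbp1+- and of female tissue in WT and PS19. Sex and genotype therefore cannot be told apart in the comparisons with PS19 Zbp1+-. Markers of hippocampal neurons were present in each library (summed FPKM of 5 genes 129, 104 and 98.4 in WT, PS19 and PS19 Zbp1+-). In PS19 against WT 2 of the 5 were higher and 3 lower. All 5 were lower in PS19 Zbp1+- than in WT (49.0% of all genes), by differences from -1.07 (Lct) to -0.24 (Zbtb20). The 7 choroid plexus markers summed to 3125, 1912 and 10.6. The part of these library differences in the results below was not tested.

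Of the 50 genes, 48 reached the filter on low values in PS19 against WT and in PS19 Zbp1+- against PS19, and 47 in PS19 Zbp1+- against WT. The tissue-restricted genes did not: reads of Psmb11 numbered 13, 1 and 6 in the order WT, PS19, PS19 Zbp1+-, and those of Psma8 4, 2 and 5. Psmb9 missed the filter in the last comparison only. In WT the core and ATPase genes had the highest levels, led by Psmc5 at an FPKM of 102, and among the members that passed, the immunoproteasome genes Psmb8 and Psmb9 had the lowest.

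The 31 constitutive genes were lower in the PS19 library than in WT almost throughout, by a small amount each. The sum of their FPKM was 1157 for WT, 946 for PS19 and 1044 for PS19 Zbp1+-, so that on the deposited scale PS19 was lowest and PS19 Zbp1+- lay between; as TPM or by total reads most of the 31 were lower still in PS19 Zbp1+-, as given below. In PS19 against WT, 30 of 31 were lower, with a median difference of -0.289 and a range from -0.58 (Psmb7) to 0.02 (Psmd11), and the read ratio of 28 lay below 1 with its whole interval. Over the 12703 genes tested the median was -0.026, 53.7% were lower by any amount and 32.7% had an interval below 1. None of the 31 passed the threshold of 1 log2 unit, which 2.20% of all genes passed upward and 0.291% downward. The size of the difference depended on the scaling: values rescaled to 1 common sum per library (TPM), which moved the median of all genes to 0.085, gave a median of -0.17 with 26 of 31 lower, and subtracting the median of genes alike in GC content and length gave -0.14 with 29 of 31 lower.

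**Figure D1:**
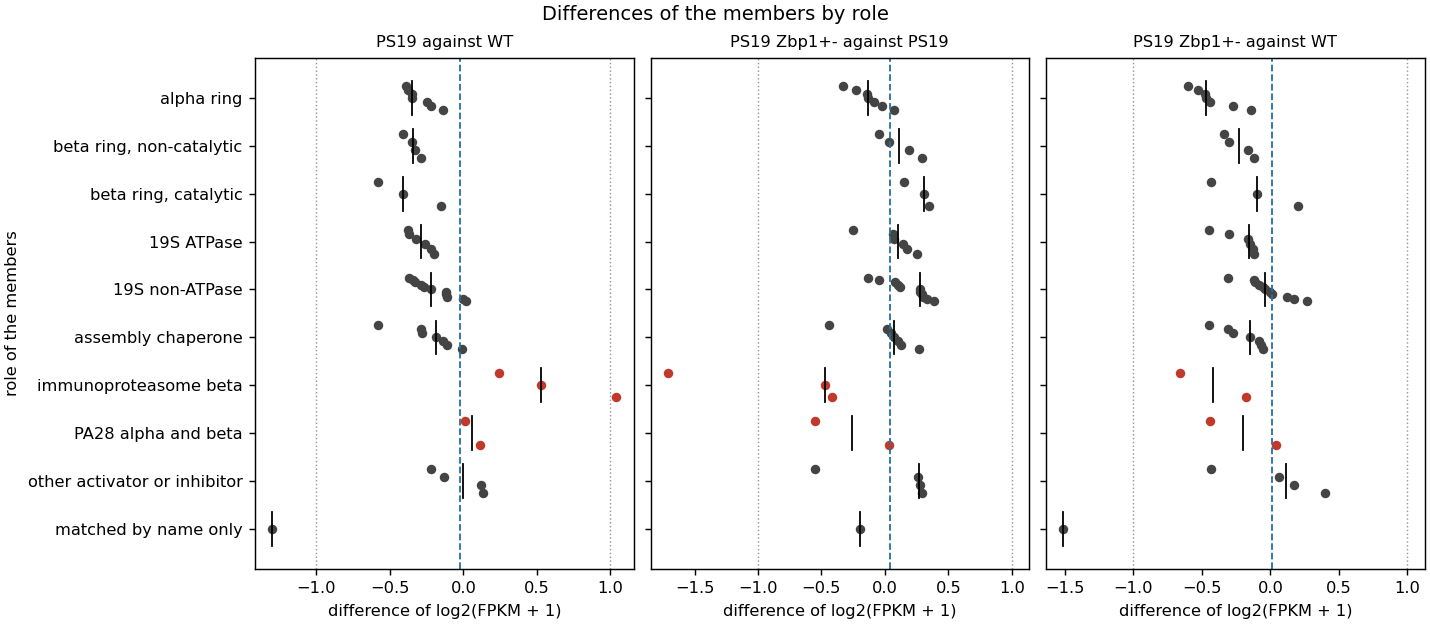
Difference of log2(FPKM + 1) of each member that passed the filter (x axis) by role (y axis), in 1 panel per comparison. Each point is 1 gene, red for the 5 inducible genes, the black bar is the median of the role, the dashed blue line the median of all genes tested, and the dotted lines the threshold of 1 log2 unit. In the left panel every core and ATPase gene lies left of the blue line (medians -0.35, -0.34, -0.41 and -0.29) and the 5 inducible genes lie right of it.

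The alpha ring, which forms the gate of the core, was lower in PS19 for 7 of 7 genes (median -0.349, and -0.15 with 7 of 7 lower after the correction for GC content and length). The ends of its range were Psma1 at -0.39, whose FPKM was 28.0, 21.2 and 19.1 (here and below in the order WT, PS19, PS19 Zbp1+-), and Psma3 at -0.14, with 17.2, 15.4 and 12.1. Both genes had their highest level in WT and their lowest in PS19 Zbp1+-. The 4 beta subunits without a proteolytic site were lower for 4 of 4 genes (median -0.341, and -0.19 after the correction), from -0.41 for Psmb4 (73.9, 55.4 and 68.1) to -0.29 for Psmb3 (1026, 834 and 738 reads).

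The 3 constitutive catalytic genes had a median of -0.412 in PS19 against WT, the lowest among the roles of the core and the regulatory particle, and of -0.24 with 2 of 3 lower after the correction for GC content and length. Psmb7, the trypsin-like beta2, had an FPKM of 20.6, 13.5 and 15.0 (1218, 797 and 814 reads). WT stood above both PS19 genotypes, with a read ratio of PS19 to WT of 0.653 (0.597 to 0.715), the lowest among the 31. Psmb6, the caspase-like beta1, had 43.3, 32.3 and 40.3 (1397, 1044 and 1195 reads), lowest in PS19; its ratio was 0.746 (0.688 to 0.809). Psmb5, the chymotrypsin-like beta5, had 76.1, 68.4 and 87.5 (1180, 1063 and 1245 reads), lowest in PS19 and highest in PS19 Zbp1+-. Its PS19 against WT difference of -0.15 turned to 0.02 with the correction for GC content and length and became -0.61 once reads of its copies were added, as described further on. Exons of Psmb7 overlap those of Nek6 on the opposite strand over 11.8% of their length, and Nek6 had 767, 978 and 528 reads; whether the counting used strand is not given in the sources used here.

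The promoters of Psmb6 and Psmb5 are shown because the constitutive genes are known targets of the factor encoded by Nfe2l1, which binds antioxidant response elements and raises their transcription together. The 250 bases before the start site were searched for the core of that element (TGACNNNGC, both strands), which was in 4 of the 25 constitutive genes with a RefSeq promoter (Psmb5, Psmb6, Psmc6 and Psmd12), in 0 of the 5 inducible genes and in 10.2% of all 32851 promoters. The capitals mark the match, which begins 9 bases before the start site in Psmb6 and 47 in Psmb5, where the last 27 of the 250 bases lie in annotated exons and are not printed. Sequences are RefSeq's on GRCm38.p6, 5′ to 3′ on the strand of the gene, chr11:70525107-70525356 (plus strand) for Psmb6 and chr14:54618023-54618245 (minus strand) for Psmb5.
Psmb6: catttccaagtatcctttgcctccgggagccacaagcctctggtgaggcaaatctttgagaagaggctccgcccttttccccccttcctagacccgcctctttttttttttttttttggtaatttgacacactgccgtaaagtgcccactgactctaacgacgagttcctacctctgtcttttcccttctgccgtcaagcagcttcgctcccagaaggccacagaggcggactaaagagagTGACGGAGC
Psmb5: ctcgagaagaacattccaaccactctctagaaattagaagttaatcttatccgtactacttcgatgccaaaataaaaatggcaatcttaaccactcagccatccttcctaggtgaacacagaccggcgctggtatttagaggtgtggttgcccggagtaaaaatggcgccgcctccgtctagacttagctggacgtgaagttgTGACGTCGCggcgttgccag
A match is a description of the letters and no evidence that the factor binds there. The CCAAT box (CCAAT, both strands) was in 10 of the 25, against 33.8% of all promoters, which is a share near the background.

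In the regulatory particle, the 6 ATPases of its base were lower in PS19 for 6 of 6 genes (median -0.287). That median was -0.16 as TPM and -0.09 after the correction for GC content and length, with 6 of 6 lower in each. Psmc3 was at one end with 58.8, 44.9 and 53.6 FPKM in WT, PS19 and PS19 Zbp1+- (difference PS19 against WT -0.38), and Psmc6 at the other with 23.0, 19.9 and 16.6 (-0.20). PS19 was the lowest library for Psmc3, whereas PS19 Zbp1+- was the lowest for Psmc6. Of the 11 non-ATPase genes 10 were lower (median -0.222), and 8 had an interval below 1; as TPM 6 of 11 were lower (median -0.10), and after the correction 10 of 11 (-0.11). Psmd6, a lid subunit, was lowest at -0.37 (29.1, 22.4 and 27.4). The others ran up to the large scaffold subunit Psmd1, which differed little (13.6, 13.6 and 14.8), and the lid subunit Psmd11, the only gene of the 31 above WT and within counting error of it (8.52, 8.66 and 7.84; 938, 956 and 792 reads). With reads of copies added, the Psmd11 ratio of PS19 to WT was 0.970 (0.891 to 1.05), and 31 of 31 were lower. Its ratio of PS19 Zbp1+- to PS19 then went from 0.905 (0.823 to 0.995) to 1.03 (0.948 to 1.13). The ubiquitin receptor Psmd4 (36.4, 28.8 and 36.4) and the deubiquitinase Psmd14 (25.2, 20.8 and 20.1) were both below WT in PS19, and Psmd4 in PS19 Zbp1+- had the same level as in WT.

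**Figure D2:**
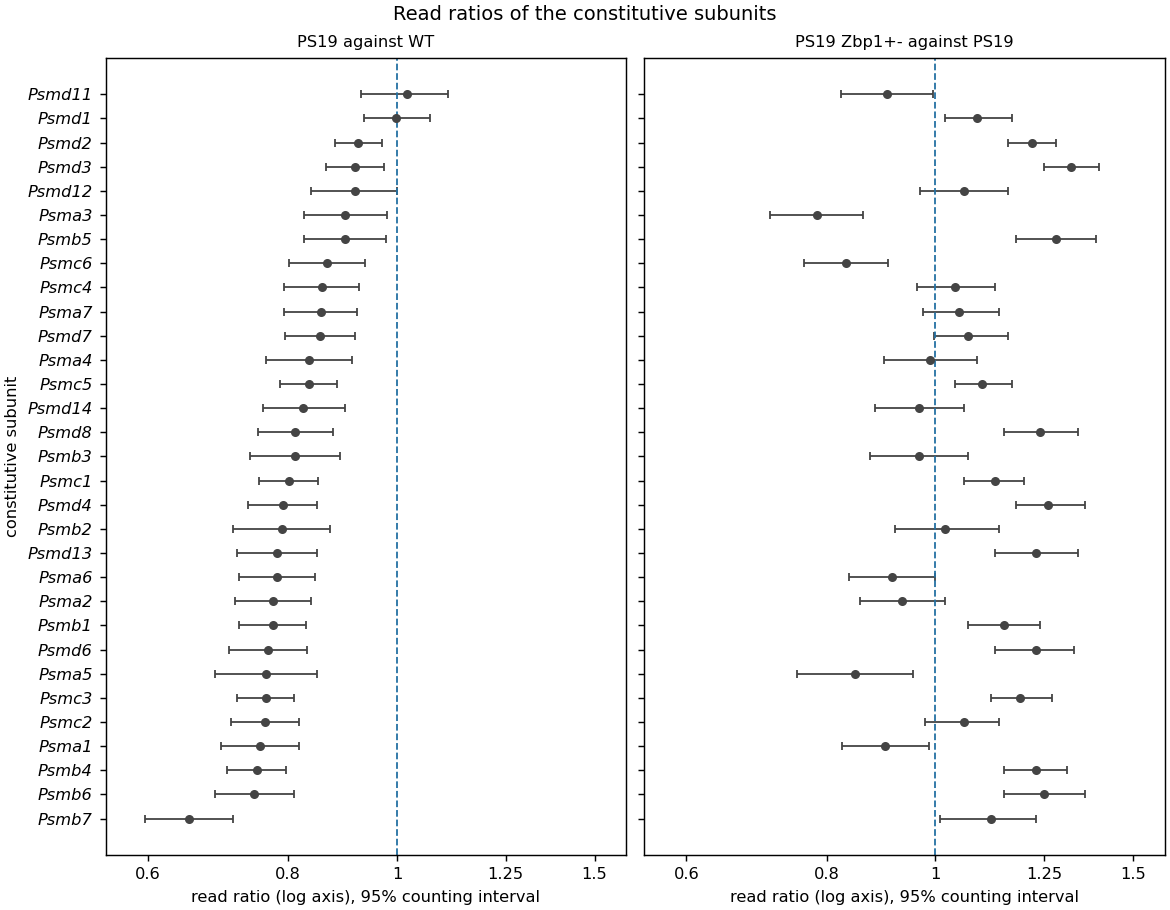
Read ratio of each of the 31 constitutive genes (y axis) on a log x axis, PS19 against WT on the left and PS19 Zbp1+- against PS19 on the right, with 95% counting intervals and a dashed line at 1. On the left 28 intervals lie below 1 and none above; on the right 15 lie above and 6 below. The panels share the PS19 library.

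PS19 Zbp1+- against PS19 showed no common direction among the constitutive genes across the scalings, and their roles differed. Of the 31, 21 were higher and 10 lower, with a median of 0.10 that became -0.18 (9 higher) when rescaled as TPM and -0.08 (11 higher) when scaled by total reads. By the median ratio it was 0.05 (20 higher), and after the correction for GC content and length 0.12 (23 higher). The median of all 12772 genes tested was 0.041, and moved to -0.206 as TPM and -0.121 by total reads. As deposited, 53.7% of all genes were higher by any amount. Intervals lay above 1 for 15 and below 1 for 6, against 39.0% and 32.6% of all genes. The range ran from -0.33 for Psma3 to 0.39 for the lid subunit Psmd3 (27.0, 24.8 and 32.7 FPKM in WT, PS19 and PS19 Zbp1+-), and no gene of the 31 passed the threshold, which 2.0% of all genes passed upward and 5.16% downward.

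Within that range the alpha ring was lower for 6 of 7 genes (median -0.127), while the catalytic genes were higher for 3 of 3 (0.314) and the non-ATPase genes for 9 of 11 (0.281). As TPM, the alpha ring was lower for 7 of 7, the catalytic genes were higher for 2 of 3 and the non-ATPase genes for 6 of 11. After the correction for GC content and length, the alpha ring was lower for 5 of 7. The catalytic genes were then higher for 3 of 3 (median 0.26) and the non-ATPase genes for 11 of 11 (0.13). Relative to the median of all genes, the alpha ring stood at -0.17 as deposited, -0.20 as TPM and -0.19 by total reads, and at -0.05 after the correction for GC content and length. The median GC content of the alpha-ring transcripts was 45.0%, against 51.6% for the catalytic genes and 50.1% for all genes tested. Psma5 gives an example of an alpha subunit, with 36.9, 28.2 and 24.0 FPKM in WT, PS19 and PS19 Zbp1+- (842, 645 and 501 reads), highest in WT and lowest in PS19 Zbp1+-.

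Against WT, PS19 Zbp1+- was lower for 26 of the 31 and higher for 5 (median -0.144; all genes 0.010), where 49.0% of all genes were lower and 51.0% higher by any amount. There were 20 intervals below 1 and 4 above, against 31.3% and 35.3% of the 12436 genes tested. The range ran from -0.60 for Psma5 to 0.27 for Psmd3, and no constitutive gene passed the threshold, which 1.07% of all genes passed upward and 2.28% downward. The alpha ring was lower for 7 of 7 genes (median -0.472), and the ATPases for 6 of 6 (-0.151). After the correction for GC content and length these were 6 of 7 (-0.25) and 4 of 6 (-0.05). The median of the 31 was -0.30 as TPM and -0.29 by total reads, and -0.03 with 18 of 31 lower after the correction for GC content and length. This comparison and the 2 above share libraries pairwise, so that their values are set side by side and not counted as separate evidence.

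The assembly chaperones had lower median levels than the constitutive subunits (8.52, 7.84 and 7.97 FPKM against 28.0, 22.7 and 25.5) and lay below WT like them. All 7 were lower in PS19 (median -0.187), with 4 intervals below 1, where 53.7% of all genes were lower and 32.7% had an interval below 1. Of the 7, 2 were higher as TPM and 3 after the correction for GC content and length. Psmg3, a chaperone of the alpha ring, was lowest at -0.58, with 2.10, 1.08 and 1.51 FPKM in WT, PS19 and PS19 Zbp1+- on only 105, 54 and 69 reads. Its read ratio of PS19 to WT was 0.513 (0.363 to 0.719). Its partner Psmg4 had 11.3, 11.2 and 7.97 (108, 107 and 70 reads), alike in WT and PS19 and low in PS19 Zbp1+-, with a difference of -0.44 from PS19. Psmd5, Psmd9 and Psmd10, chaperones of the ATPase ring, lay between -0.28 and -0.11 in PS19 against WT.

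The inducible genes differed from WT in the other direction. All 5 were higher in PS19 than in WT (median 0.244; 46.3% of all genes were higher by any amount). These counts are descriptions, because Psmb9 in both comparisons with PS19, and Psmb8 in PS19 Zbp1+- against PS19, reached the filter only through the PS19 library, where they were high. For the 3 immunoproteasome beta genes the interval of the read ratio lay above 1, as it did for 28.3% of all genes. In PS19 Zbp1+- against PS19, 4 of 5 were lower (median -0.467; 46.3% of all genes were lower by any amount), each with an interval below 1, as 32.6% of all genes had. The 3 beta genes had these directions in every scaling tried, whereas Psme1 changed sign in the latter comparison with other scalings. Psme2 changed sign in the former comparison with reads of copies added. No copy of the 3 beta genes was found, so adding copies could not change their values.

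**Figure D3:**
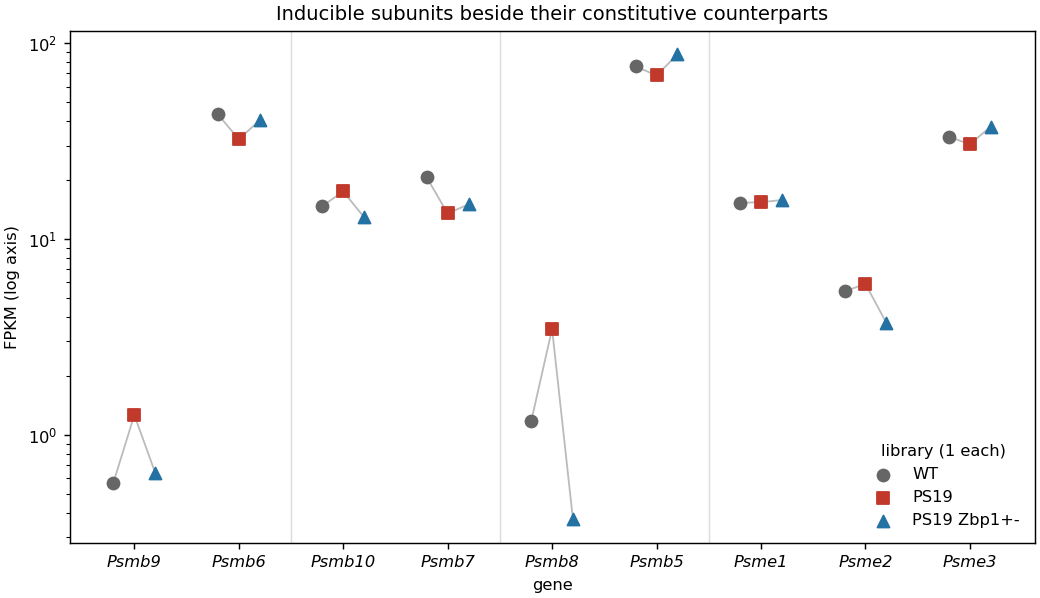
FPKM on a log axis (y) of the 5 inducible genes beside their constitutive counterparts (x axis), with 1 point per library: grey circles WT, red squares PS19 and blue triangles PS19 Zbp1+-. Psmb9, Psmb10 and Psmb8 peak in PS19 (1.26, 17.5 and 3.47), where Psmb6, Psmb7 and Psmb5 are lowest (32.3, 13.5 and 68.4), and Psme1 is level (15.3 to 15.8).

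Psmb8, beta5i (ENSMUSG00000024338, chr17:34197721-34201454, plus strand), had an FPKM of 1.17, 3.47 and 0.369 on 55, 164 and 16 reads. Each pair of libraries differed beyond counting error, with PS19 high and PS19 Zbp1+- low. It was the only proteasome subunit gene past the threshold in any comparison, at 1.04 in PS19 against WT (read ratio 2.98, 2.18 to 4.12) and -1.71 in PS19 Zbp1+- against PS19 (0.107, 0.0595 to 0.178). Against WT, PS19 Zbp1+- lay at -0.66, a read ratio of 0.317 (0.170 to 0.562). An antisense gene over 14.7% of its exons, Gm20496, had 0 reads in each library.

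Psmb9, beta1i (ENSMUSG00000096727, chr17:34181988-34187764, minus strand), was the lowest of the 5 in WT, with an FPKM of 0.570 there against 1.26 for PS19 and 0.639 for PS19 Zbp1+-, on 36, 80 and 37 reads. PS19 stood above the others, which were alike within counting error. The read ratio of PS19 to WT was 2.22 (1.48 to 3.38) and that of PS19 Zbp1+- to PS19 was 0.505 (0.333 to 0.755), while the differences of 0.53 and -0.47 fell short of the threshold on the log2(FPKM + 1) scale. Taken as a log2 read ratio without the added 1, the differences were 1.15 and -0.99. Its exons overlap those of Tap1 on the opposite strand over 5.79% of their length, and Tap1, which carries the peptides into the endoplasmic reticulum, had 94, 290 and 142 reads.

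Psmb10, beta2i (ENSMUSG00000031897, chr8:105935735-105938444, minus strand), was far more abundant than the other inducible beta genes, with 14.7, 17.5 and 12.9 FPKM (431, 517 and 347 reads). PS19 was again highest, but the ratio of PS19 to WT was only 1.20 (1.05 to 1.36), against 0.733 (0.638 to 0.842) for PS19 Zbp1+- to PS19. Its differences were 0.24 and -0.42.

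Psme1, PA28 alpha (chr14:55578123-55581529, plus strand), had 15.3, 15.4 and 15.8 FPKM (583, 587 and 551 reads), and no pair of libraries differed beyond counting error. The PS19 Zbp1+- against PS19 difference of 0.03 turned to -0.23 as TPM. Psme2, PA28 beta (chr14:55587441-55591113, minus strand), had 5.39, 5.90 and 3.73 (164, 180 and 104 reads), alike in WT and PS19 and lower in PS19 Zbp1+-. Its ratio of PS19 Zbp1+- to PS19 was 0.631 (0.491 to 0.808), and its difference of -0.55 shrank to -0.13 once reads of its near-identical copy were added.

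Short windows of the Psmb8 and Psmb9 promoters are shown because these neighbouring genes are known targets of interferon-activated factors. The same 250 bases were searched on both strands. The core of the interferon-stimulated response element, 2 copies of GAAA spaced by 2 bases, was in 0 of the 5 inducible genes and in 2.98% of all promoters, and the gamma-activated site (TTCNNNGAA) in Psmb8 alone of the 5 and in 7.02% of all promoters. In Psmb9 the only match was a CCAAT box, on the opposite strand of the gene. In both genes the RefSeq start site lies inside the gene as the table gives it, and all 250 bases searched lie in exons of the GENCODE M21 annotation. Capitals mark the match, which begins 97 bases before the start site of Psmb8 and 8 before that of Psmb9, in chr17:34198088-34198116 (plus strand) and chr17:34187331-34187359 (minus strand) of GRCm38.p6, from RefSeq.
Psmb8: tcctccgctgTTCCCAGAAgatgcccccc
Psmb9: ctgcaccgcgcgcagccgctgATTGGaaa
Absence of a match says only that these letters are not in this window.

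Set against its counterpart in the same library, each inducible beta gene took a larger share in PS19, a measure that no scaling between libraries can change. Psmb9 stood at 1.32%, 3.92% and 1.58% of the FPKM of Psmb6. The ratio was thus 2.97 times that of WT in PS19 (1.96 to 4.57), and PS19 Zbp1+- had 0.404 times that of PS19 (0.264 to 0.610). For Psmb10 and Psmb7 the levels were 71.0%, 130% and 85.5%. PS19 was the only library in which the FPKM of the inducible beta2i exceeded that of the constitutive beta2. In reads Psmb7 lay above Psmb10 in each library (797 against 517 in PS19), and FPKM divides these by gene lengths of 3421 and 1705 bases. The ratio in PS19 was 1.83 times that of WT (1.56 to 2.15), and PS19 Zbp1+- had 0.657 times that of PS19 (0.554 to 0.780). For Psmb8 and Psmb5 they were 1.53%, 5.07% and 0.422%, that is 3.31 times WT in PS19 (2.39 to 4.63) and 0.0833 times PS19 in PS19 Zbp1+- (0.0462 to 0.141). For this pair alone of the 3 the ratio in PS19 Zbp1+- was also below that of WT (0.276 times, 0.147 to 0.492).

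**Figure D4:**
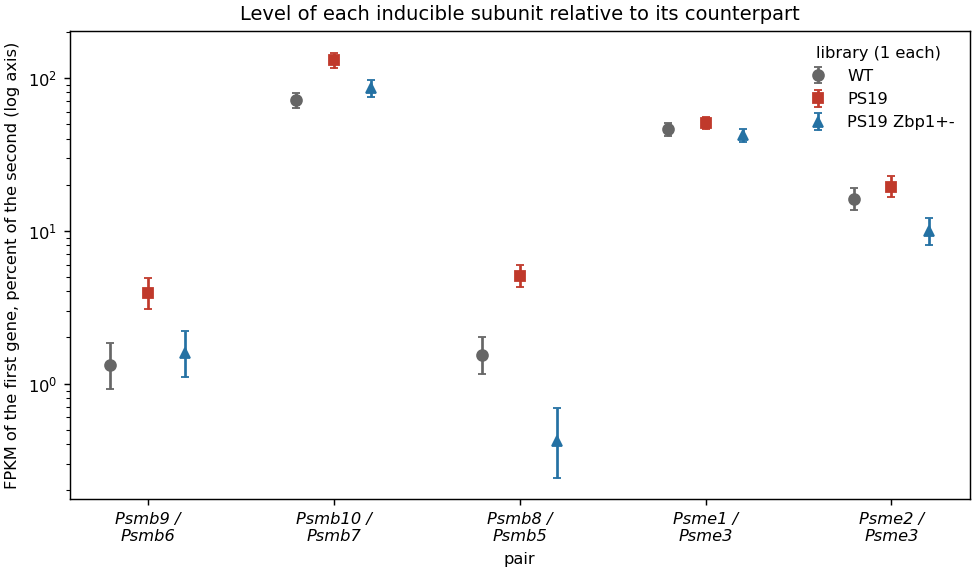
FPKM of each inducible gene as a percentage of that of its counterpart in the same library (log y axis), for 5 pairs (x axis), with 95% counting intervals and 1 point per library. PS19 lies above both other libraries in the 3 beta pairs (3.92, 130 and 5.07%), while the intervals of WT and PS19 overlap in both PA28 pairs.

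The PA28 genes have no direct counterpart and were set against Psme3, which encodes the nuclear activator PA28 gamma. Psme1 stood at 45.9%, 50.6% and 42.0% of Psme3, and Psme2 at 16.2%, 19.4% and 9.93%. WT and PS19 did not differ beyond counting error for either (1.10 times, 0.961 to 1.26, and 1.20 times, 0.955 to 1.51), while Psme2 in PS19 Zbp1+- had 0.511 times the ratio of PS19 (0.394 to 0.662). Relative to the summed reads of the 31 constitutive genes (49580, 41049 and 41500), the level in PS19 was 3.60 times that in WT for Psmb8 (2.64 to 4.98), 2.68 times for Psmb9, 1.45 for Psmb10, 1.33 for Psme2 and 1.22 for Psme1 (1.08 to 1.37). All 5 were thus higher relative to the constitutive genes, the beta genes most. The constitutive reads were themselves lower in PS19, so a gene alike in both libraries counts as higher on this measure. In PS19 against WT the median difference was -0.289 for the constitutive genes and -0.026 for all genes. By their own read ratios, Psme1 (0.895 to 1.13) and Psme2 (0.882 to 1.36) did not differ beyond counting error. Whether they exceed the background of all genes on this measure was not tested.

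The other activators and the inhibitor differed among themselves. Psme3 had 33.3, 30.4 and 37.5 FPKM in WT, PS19 and PS19 Zbp1+- (1695, 1550 and 1751 reads), lowest in PS19 and highest in PS19 Zbp1+-, and its difference of 0.29 between these became 0.02 as TPM. Psme4, the nuclear activator PA200, had 7.07, 7.76 and 4.98 (1022, 1124 and 660 reads). It was highest in PS19, by a ratio to WT of 1.10 (1.01 to 1.20), and lowest in PS19 Zbp1+-, with a ratio to PS19 of 0.641 (0.582 to 0.707). Psmf1, the inhibitor PI31, had 4.47, 5.0 and 6.20 (497, 557 and 632 reads), and WT and PS19 did not differ beyond counting error (ratio 1.12, 0.989 to 1.26). It was highest in PS19 Zbp1+-, by a difference of 0.26 from PS19 that became 0.02 as TPM. Psmc3ip, which is no proteasome gene, was past the threshold in both comparisons with WT: it had 5.01, 1.43 and 1.11 FPKM on 157, 45 and 32 reads, high in WT alone, with differences of -1.30 in PS19 and -1.51 in PS19 Zbp1+-. Its exons overlap those of Mlx on the opposite strand over 21.2% of their length, and Mlx had 419, 323 and 364 reads.

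Several members have near-identical copies elsewhere in the genome, and for some the result changed when reads of the copy were added. At least 1 copy of 90% identity or more over 100 bases was annotated for 17 of the 50 genes, 14 of them constitutive. For Psmb5 the processed pseudogene Gm3375 on chromosome 7 is 98.9% identical over 793 bases, with 472, 18 and 33 reads, high in WT alone; Gm3375 was singled out after its values were seen. Psmb5 with its copies had 1652, 1081 and 1278 reads, a ratio of PS19 to WT of 0.653 (0.604 to 0.706) in place of 0.899 (0.827 to 0.978) for Psmb5 alone. The Psmb5 difference between PS19 Zbp1+- and WT turned from 0.20 to -0.24 in the same way. Psme2 and Psme2b are 99.3% identical over 717 bases, and together they had 345, 334 and 278 reads. Neither comparison of this sum with PS19 differed beyond counting error (0.966, 0.829 to 1.13, and 0.909, 0.773 to 1.07), and Psme2b alone had 181, 154 and 174. Gm13835, a copy of Psma3 identical over 662 bases, had 490, 362 and 350 reads beside 1154, 1040 and 746 of Psma3, and both were highest in WT. Among the 17 constitutive genes without such a copy, 17 were lower in PS19 than in WT, with a median of -0.33. How the counting assigned reads that match 2 places is not given in the sources used here.

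**Figure D5:**
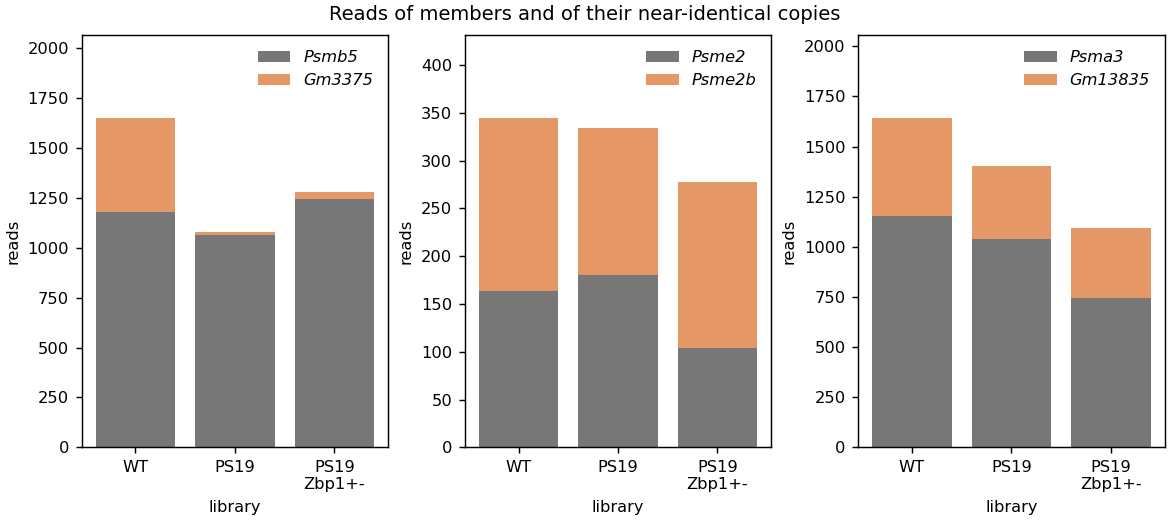
Reads per library (y axis, from 0) of 3 members, in grey, and of their copy, in orange, stacked, with a separate scale in each panel. The Gm3375 segment is tall in WT (472 reads) and thin in PS19 and PS19 Zbp1+- (18 and 33), and Psme2 holds 47.5, 53.9 and 37.4% of its sum with Psme2b.

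Genes that work with the proteasome were read from 5 lists. Of 21 symbols listed for proteasome-associated genes (receptors, deubiquitinases, shuttles and assembly factors), 18 were in the table. Shfm1 and AI314180 are older symbols of Sem1 and Ecpas, which were among the 18, and Paaf1 was not found. In PS19 against WT 16 of 18 were lower (median -0.159; all genes -0.026, 53.7% lower), and 10 of 18 as TPM. In PS19 Zbp1+- against PS19 15 of 18 were higher (median 0.233; all genes 0.041, 53.7% higher), and 7 of 18 with a median of -0.04 as TPM. None passed the threshold in either comparison. Sem1, a small lid subunit, had 519, 343 and 337 reads, Pomp, which guides core assembly, had 1408, 1024 and 1007, and both were high in WT alone. The shuttle Ubqln2 had 5079, 4021 and 6653, low in PS19 and high in PS19 Zbp1+-.

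Among 10 genes of the NFE2L1 and NFE2L2 control of proteasome and antioxidant genes, 1 passed the threshold upward in PS19 against WT (2.20% of all genes did) and 2 downward in PS19 Zbp1+- against PS19 (5.16% of all genes). Nfe2l1 itself had 57.2, 57.9 and 69.1 FPKM (5374, 5442 and 5951 reads), within counting error in WT and PS19 (read ratio 1.01, 0.973 to 1.05). Hmox1, which degrades heme, had 96, 277 and 66 reads, with differences of 1.28 and -1.59. Nfe2l2 had 425, 627 and 129 reads, low in PS19 Zbp1+-, with -1.75 against PS19 and -1.25 against WT. In the list of 9 ubiquitin genes, Isg15, an interferon-induced modifier related to ubiquitin, was the one past the threshold, with 25, 155 and 31 reads and differences of 2.14 and -1.84. The ubiquitin gene Ubb had 527, 409 and 487 FPKM, lowest in PS19.

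The other 2 lists held class I genes, which use the peptides the immunoproteasome makes, and interferon factors. Of 12 class I genes 9 were higher and 3 lower in PS19 than in WT (46.3% and 53.7% of all genes). Intervals lay above 1 for 8 and below 1 for 2 (28.3% and 32.7% of all genes). The 3 lower genes were the folding factors Calr (-0.30) and Pdia3 (-0.17), and Canx, which lay within counting error (read ratio 0.997, 0.959 to 1.04). In the list 3 genes passed the threshold upward in PS19 against WT (Tap1, B2m and H2-D1) and 3 downward in PS19 Zbp1+- against PS19 (B2m, H2-K1 and H2-D1). Among all genes 2.20% and 5.16% did so. B2m, the light chain, had 83.6, 239 and 54.1 FPKM, and the heavy chain H2-D1 18.8, 40.6 and 4.88. Both were highest in PS19, and H2-D1 in PS19 Zbp1+- lay below WT by -1.75, as H2-K1 did by -1.76. Of 8 interferon factors 8 were higher in PS19 than in WT and 8 lower in PS19 Zbp1+- than in PS19 (46.3% of all genes in each case). Among those past the threshold were Irf7 (46, 236 and 31 reads; 1.44 and -1.60) and Irf8 (98, 487 and 124; 1.47 and -1.24) in both, and Irf9 (-1.18) in the latter. Irf7 and the class I gene Nlrc5 reached the filter in both comparisons only through the PS19 library, where they were high. Irf8 and Tap1 did so in PS19 against WT, and Erap1 in PS19 Zbp1+- against PS19. The counts of both lists are therefore descriptions. Tap2, next to Psmb8 on chromosome 17, had 195, 328 and 154 reads, and the class II genes H2-Ab1 and H2-Aa further along had 43, 333 and 0, and 63, 553 and 0. These 3 genes were highest in PS19. On the other side of Psmb9, H2-DMb1 had 55, 54 and 5, H2-DMb2 had 6, 22 and 0, H2-DMa had 238, 245 and 196, and Brd2 had 3313, 3718 and 3591. Of these 4 genes H2-DMb2 and Brd2 differed between PS19 and WT beyond counting error, and both were higher in PS19.

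In bulk tissue, fewer cells of a type and less RNA per cell cannot be told apart, and marker genes of cell types also differed between the libraries. Of 10 microglial markers 9 were higher in PS19 than in WT (46.3% of all genes), 7 of them past the threshold (2.20%). In PS19 Zbp1+- against PS19, 10 were lower (46.3% of all genes), again 7 past it (5.16%). Of these 7, Itgam (difference -1.02) reached the filter only through the PS19 library, where it was high. Its FPKM was 2.38 there and 0.667 in PS19 Zbp1+-, so this count is a description. P2ry12 (read ratio 0.904, 0.794 to 1.03) and Tmem119 (1.13, 0.990 to 1.28) did not differ beyond counting error between PS19 and WT. The summed FPKM of the 10 was 178, 627 and 188, highest in PS19 as the inducible beta genes were. It was led in PS19 by C1qa (205) and C1qb (154). The 6 astrocyte markers summed to 272, 1055 and 261, and the 6 oligodendrocyte markers to 753, 1358 and 477. The 7 neuronal markers, by contrast, summed to 844, 724 and 1101, lowest in PS19. Of these, 6 of 7 were lower in PS19 than in WT (3 of 7 as TPM), as 53.7% of all genes were. In PS19 Zbp1+- against PS19, 6 of 7 were higher (5 of 7 as TPM), as 53.7% of all genes were. Against WT, PS19 Zbp1+- was higher for 5 of the 7 neuronal markers (median 0.374; 51.0% of all genes). It was lower for 26 of the 31 constitutive genes (median -0.144; 49.0% of all genes). After the correction for GC content and length these were 4 of 7 (0.30) and 18 of 31 (-0.03). Endothelial markers summed to 34.4, 34.9 and 52.9. Lymphocyte markers were near the limit of detection: 10 T and NK cell genes summed to 0.730, 2.66 and 1.62 with 4, 1 and 8 of them at 0 reads (Cd3e and Gzmb at 0 in WT and in PS19 Zbp1+-), and 4 B cell genes to 0.258, 0.336 and 0.697 with Ms4a1 at 0 in each library. The part of cell composition in the subunit differences was not tested.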

How the data were processed

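Hippocampal RNA of 3 genotypes, 1 library each, was extracted with TRIzol and made into libraries with an NEB Next Ultra kit, per the labels' protocols. The authors deposited 1 table of FPKM values for 54532 genes, a unit that the file is named for and that its values fit. Trim Galore 0.6.5, STAR 2.5.3a, featureCounts 2.0.4 and the build mm39 are named in the submitters' processing notes, without roles; the annotation release, strandedness and treatment of reads that match several places are not given in the sources used here. Positions are as the table gives them: 48 of the 50 genes have the same start and end in GENCODE M21, which is on GRCm38.

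In each column 100% of the products of FPKM and gene length were whole multiples of a common step (within 0.05 reads), which gave whole reads. The step also gave the library sizes implied by the FPKM scaling, 17253479 (WT), 17287957 (PS19) and 15826984 (PS19 Zbp1+-). The recovered reads summed to 16746085, 16400328 and 17109734, so that the implied size lay below the reads in PS19 Zbp1+- alone. How these sizes were set is not given in the sources used here. The pseudocount was 1 FPKM. Read ratios have exact (Clopper-Pearson) 95% intervals, and ratios of ratios have conditional exact intervals. Copies were sought with BLAST 2.17.0 among GENCODE M21 transcripts, and RefSeq promoters were matched by symbol for 42 of the 50 genes.

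The members and lists were chosen with earlier results of these data known. Genes named were the 5 inducible genes, Psmb5, Psmb6, Psmb7, Psme3, Psme4 and Psmf1, members past the threshold, the highest and lowest of each role per comparison, and up to 6 genes past it per list; others were chosen after their values were seen, among them Psmd1, Psmd4, Psmd14, Nfe2l1, Ubb, Sem1, Pomp, Ubqln2, Calr, Pdia3, Canx and the neighbours on chromosome 17.

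Alternatives were pseudocounts of 0.1 and 0.5, no filter, a mean FPKM of at least 5, TPM, total reads, the median ratio, thresholds of 1.5-fold and 4-fold, and every biotype. Chosen after seeing the data were a correction by 10 bins of GC content and 5 of length, leaving out or adding copies, other scalings of the associated genes and neuronal markers, and reads set to at least 3. Procedures were tested on simulated data. Calculations used scipy 1.17.1, numpy 2.4.6 and pandas 2.3.3 in Python 3.11.15, and figures matplotlib 3.10.9.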

Additional observations from a re-analysis of the deposited data

How the results depend on the processing

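With 1 library per genotype, no setting tests a genotype, and among the subunits and chaperones that passed the filter, depth limits Psmb8, Psmb9 and Psmg3 most, with 16 to 164 reads each. No paired analysis was possible because each genotype is 1 library and the labels carry no replicate numbers, so no library could be left out either. The median of the constitutive genes in PS19 against WT (-0.29) was -0.17 as TPM and -0.14 after the correction for GC content and length. In PS19 Zbp1+- against PS19 (0.10) it changed sign, to -0.18 as TPM and -0.08 by total reads, and was 0.12 after the correction. Against WT (-0.14) it was -0.30 as TPM, -0.29 by total reads and -0.03 after the correction. The TPM and total-read scalings change only the library sizes. The median of the inducible genes had 1 direction under each alternative run, from 0.11 to 0.42 in PS19 against WT and from -0.69 to -0.19 in PS19 Zbp1+- against PS19; the smallest values of both came at a mean FPKM of at least 5, which leaves out Psmb8 and Psmb9.

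Of the values of named genes under alternatives, 246 moved by less than their counting interval and 41 by more, and no difference past the threshold changed sign. The 246 include values with copies added of genes that have no copy, which could not move. Psmb8 was the member past the threshold in PS19 against WT upward and Psmc3ip downward; the counts became 2 upward with a pseudocount of 0.1, and 0 both ways at a mean FPKM of at least 5 or at 4-fold. In PS19 Zbp1+- against PS19 the 1 member downward became 0 under the latter 2 settings. Against WT the 1 member downward became 2 (pseudocount 0.1), 3 (1.5-fold) and 0 (the latter 2 settings). With a pseudocount of 1 FPKM on both genes, Psmb9 to Psmb6 was 3.55, 6.81 and 3.97% in WT, PS19 and PS19 Zbp1+-, Psmb8 to Psmb5 2.81, 6.44 and 1.55%, and Psme2 to Psme3 12.3% in PS19 Zbp1+-.

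Counts over all genes moved with the threshold and the filter, as their construction implies. PS19 against WT had 280 higher and 37 lower; these were 541 and 101 (pseudocount 0.1), 102 and 16 (mean FPKM of at least 5), 806 and 344 (1.5-fold), 37 and 2 (4-fold), and 514 and 176 (every biotype). PS19 Zbp1+- against PS19 had 255 higher and 659 lower; these were 430 and 1184 (pseudocount 0.1), 1197 and 1544 (1.5-fold), 10 and 104 (4-fold), 528 and 1041 (every biotype) and 119 and 1015 (TPM), with 147 higher by total reads and 241 lower at a mean FPKM of at least 5. PS19 Zbp1+- against WT had 133 higher and 283 lower; these were 290 and 543 (pseudocount 0.1), 87 and 78 (mean FPKM of at least 5), 834 and 886 (1.5-fold), 7 and 53 (4-fold), and 422 and 588 (every biotype), with 76 higher as TPM and 78 by total reads.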
